A study of Mus musculus with 6 samples.

Results

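The proteasome genes of the motor cortex were compared between SOD1G93A mice given ultrasound and control SOD1G93A mice. The genes were chosen by name, as the rows of the deposited table called Psma, Psmb, Psmc, Psmd, Psme, Psmf or Psmg with a number, with named pseudogenes left out and at least 10 counts summed over the 6 libraries. This gave 49 of the 33182 genes, and no row that matched by name was lost to the count minimum, since the lowest of the 49 had 47 counts. All 6 libraries carried the SOD1G93A genotype, that is, a mutant human superoxide dismutase transgene that gives mice a motor neuron disease like amyotrophic lateral sclerosis. The labels place them at day 120, with 3 libraries treated with ultrasound, named low-intensity pulsed ultrasound in the series title, and 3 controls. The sources used here do not give the promoter of the transgene, the ultrasound dose and schedule, the handling of the controls or any pooling of animals. They also do not state that each library is a separate animal, so the p-values speak only of the spread among the 6 libraries, which may be technical.

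The proteasome degrades proteins that carry ubiquitin chains. Its 20S core is a barrel of alpha and beta rings, in which the beta subunits Psmb5, Psmb6 and Psmb7 cut the peptide chain, and its 19S cap recognises, unfolds and feeds in the substrate. Under interferon the catalytic subunits can be exchanged for Psmb8, Psmb9 and Psmb10, which gives the immunoproteasome, and the core can be capped by the PA28 activators Psme1 and Psme2 in place of the 19S particle. Aggregates of mutant SOD1 carry ubiquitin, and proteasome function has long been studied in this model for that reason.

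Total counts ranged from 42726633 to 45885619 in the ultrasound libraries and from 38202541 to 60088636 in the controls. Counts of Rn18s, the 18S ribosomal RNA, made up 0.655%, 9.18% and 1.13% of the total in ultrasound libraries 1 to 3 and 1.67%, 0.561% and 4.68% in controls 1 to 3. Cortical neuron markers were present in every library, with Slc17a7, the glutamate transporter of cortical excitatory neurons, at 196 to 247 FPKM (fragments per kilobase of transcript, scaled to the mapped fragments of the library) with ultrasound and 162 to 206 FPKM in controls. Markers of neighbouring regions differed between single libraries. Ttr of the choroid plexus stood at 235 FPKM in ultrasound 3 and at most at 12.7 FPKM elsewhere, and 3 olfactory bulb genes summed to 52.4 FPKM in control 3 and to at most 3.13 FPKM elsewhere.

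Promoter windows were examined because the proteasome genes are known targets of the transcription factor Nfe2l1, which binds antioxidant response elements, and because their levels moved together between libraries, as described further on. RefSeq windows on GRCm38.p6, from 250 bases before to 50 bases after a transcription start, were matched for 41 of the 49 genes, in 44 windows. The element core TGACNNNGC, searched on both strands, was found in 6 of the 44 member windows (13.6%) and in 12.4% of all 32851 windows. The 6 genes were the catalytic subunits Psmb5 and Psmb6, the ATPase Psmc6, the cap subunit Psmd12, the chaperone Psmd9 and the activator Psme4. Their matches are shown with up to 10 bases on either side, 5′ to 3′ on the strand that carries the match, with the core in capitals.
Psmb5, chr14:54618024-54618052, minus-strand gene, same strand: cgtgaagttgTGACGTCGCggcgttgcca
Psmb6, chr11:70525338-70525366, plus-strand gene, same strand: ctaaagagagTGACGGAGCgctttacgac
Psmd9, chr5:123228149-123228177, plus-strand gene, same strand: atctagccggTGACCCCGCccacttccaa
Psmc6, chr14:45329587-45329615, plus-strand gene, opposite strand: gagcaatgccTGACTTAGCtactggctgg
Psmd12, chr11:107479278-107479299, plus-strand gene, opposite strand: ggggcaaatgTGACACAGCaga
Psme4, chr11:30771758-30771786, plus-strand gene, opposite strand: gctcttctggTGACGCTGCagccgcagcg
Counted along the gene from the transcription start, the first base of the match lay at -7 for Psme4, -9 for Psmb6, -31 for Psmd9 and -47 for Psmb5, and at -227 for Psmc6 and -247 for Psmd12. The interferon-stimulated response core, GAAA followed by any 2 bases and GAAA again, also searched on both strands, lay in 5 of the 44 member windows (11.4%) and in 3.44% of all windows. One of these belonged to Psme1, shown on the strand opposite to the gene with the core in capitals.
Psme1, chr14:55578493-55578522: agcgggaaggGAAAGCGAAAgcacagctcg
The others were in Psmb3, Psmd4, Psmd9 and Psmg4. Neither core was present in the windows of Psme2, Psmb8, Psmb9 or Psmb10. The CCAAT box was in 14 member windows (31.8%) and in 37.4% of all windows. CG dinucleotides were more frequent, with a median of 19 in the member windows and 7 in all windows. These matches describe the letters in these windows and do not show binding.

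No proteasome gene passed the test between ultrasound and control libraries. A total of 45 of the 49 genes reached the minimum mean of 0.5 FPKM over the 6 libraries and were tested, with the quasi-likelihood test of edgeR and Benjamini-Hochberg adjustment over all 15740 tested genes. None of the 45 had an adjusted p under 0.05, where 0.00635% of all tested genes did, and DESeq2 also passed none of them, where it passed 0.185% of all genes. At an unadjusted p under 0.05 there was 1 gene of 45, the activator subunit Psme2, which was lower with ultrasound, against 4.77% of all tested genes, 2.45% higher and 2.32% lower with ultrasound. The median log2 fold change (ultrasound minus control) was 0.02 over the 45 genes and -0.01 over all tested genes, with 27 of the 45 above zero. In a bulk sample, fewer cells of a type and less RNA per cell cannot be told apart.

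The differences were bounded for most of the genes. The 95% interval of the fold change, unadjusted and gene by gene, excluded a 2-fold change in either direction for all 45 genes and a 1.5-fold change for 31 of them. Over all tested genes these shares were 65.7% and 34.2%. The standard error (SE) of the log2 fold change had a median of 0.16 for the 45 genes and 0.23 for all tested genes. Among the tested genes of like abundance, those between the quartiles of the proteasome genes' counts per 1e6 (CPM), 39.2 to 87.4 CPM, 90.1% had an interval that excluded a 2-fold change and 62.7% one that excluded a 1.5-fold change. Of the 23 proteasome genes in that range, all 23 had an interval that excluded a 2-fold change and 19 (82.6%) one that excluded a 1.5-fold change.

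**Figure D1:**
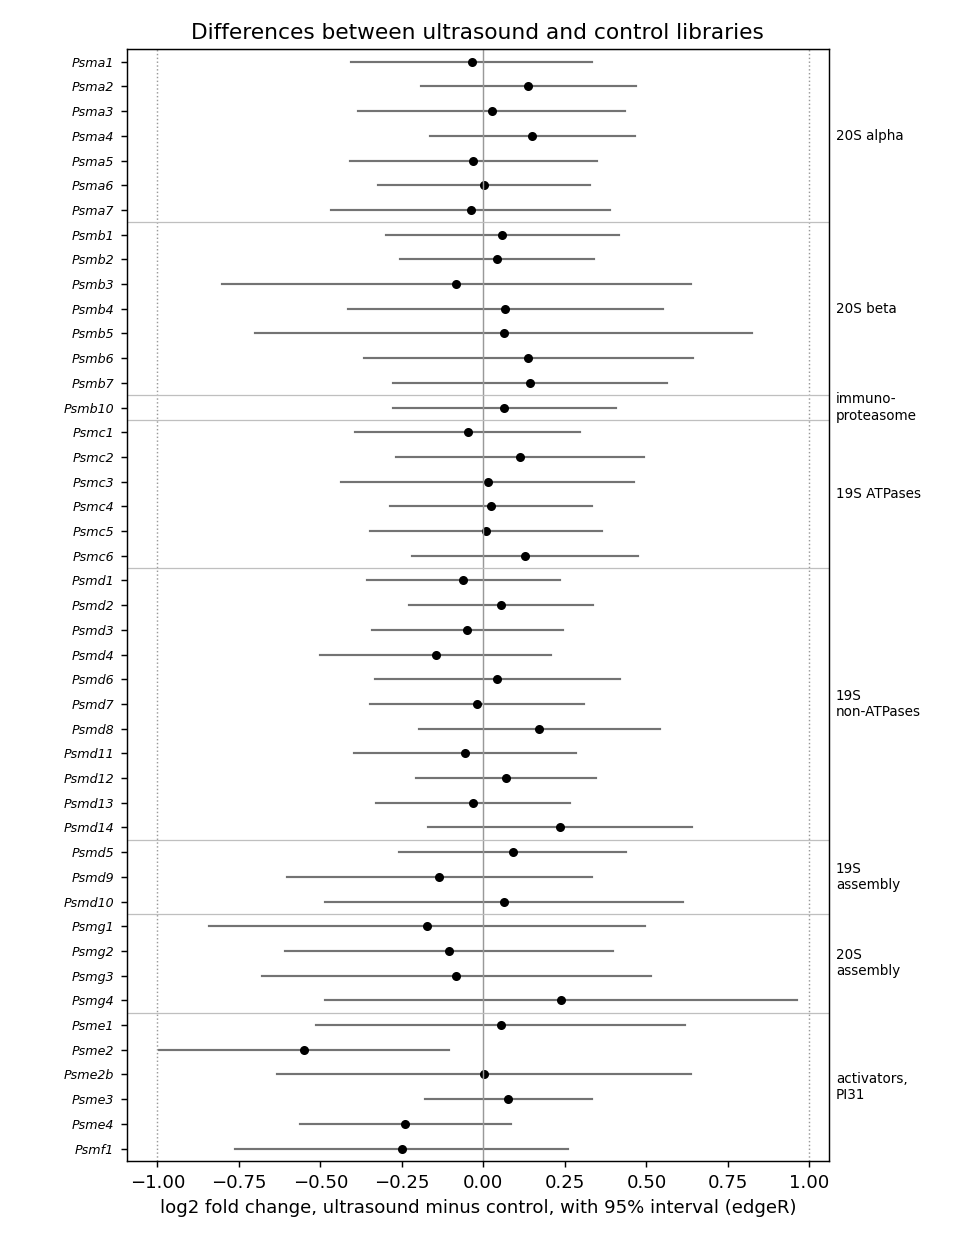
Log2 fold change (ultrasound minus control) of the 45 tested proteasome genes on the horizontal axis, with genes down the page by class. Points are edgeR estimates over 3 ultrasound and 3 control libraries, lines are 95% intervals, and dotted lines mark a 2-fold change. Only the line of Psme2 lies wholly to one side of zero.

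The subunit transcripts were abundant but far from equal in level. Over all 6 libraries the mean level of the 49 genes ran from 0.0250 FPKM for Psmb11 to 109 FPKM for Psmc5, with a median of 16.8 FPKM, against 4.40 FPKM for all tested genes. The 19S ATPases had the highest class median, 37.4 FPKM, followed by the beta ring with 31.1 FPKM, the 19S non-ATPase subunits with 20.3 FPKM and the alpha ring with 17.5 FPKM. Assembly chaperones were lower, with medians of 6.52 FPKM for the 20S chaperones Psmg1 to Psmg4 and 4.79 FPKM for the 19S chaperones Psmd5, Psmd9 and Psmd10. Summed over the 49 genes, the transcripts reached 1076, 1165 and 924 FPKM in ultrasound libraries 1 to 3 and 999, 1142 and 1067 FPKM in controls 1 to 3. The groups overlapped in this sum, and both its highest and its lowest value were ultrasound libraries.

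**Figure D2:**
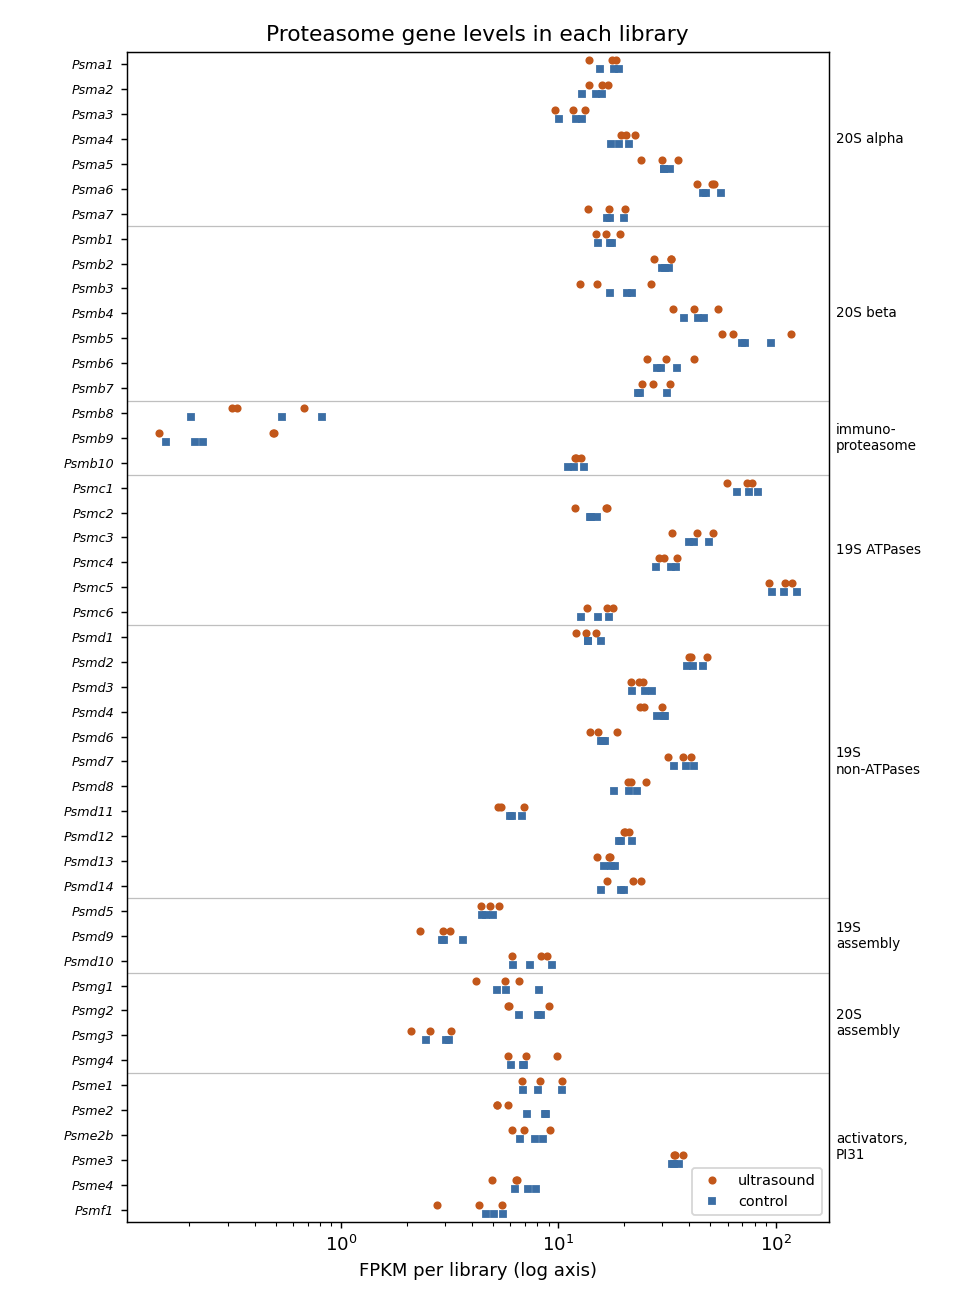
Level of 47 proteasome genes in each library, in FPKM on a log axis, with genes down the page by class. Circles are the 3 ultrasound libraries and squares the 3 controls. The ATPase Psmc5 is highest, Psmb8 and Psmb9 lie below 1 FPKM, and only in Psme2 do all circles lie left of all squares. Psma8 and Psmb11, listed at 0 in some libraries, are not drawn.

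The alpha ring, which forms the gate of the core, showed no difference past the threshold in any of its 7 genes. Their log2 fold changes lay between -0.04 and 0.15, and for all 7 the 95% interval excluded a 1.5-fold change. Psma4 had the smallest unadjusted p of the class, with 22.6, 20.5 and 19.3 FPKM in ultrasound libraries 1 to 3 and 21.2, 19.1 and 17.4 FPKM in controls 1 to 3. The groups overlapped, and the log2 fold change was 0.15 (SE 0.14, edgeR adjusted p = 0.976). Psma2 stood at 16.9, 15.9 and 13.8 FPKM with ultrasound and at 15.0, 15.8 and 12.8 FPKM in controls. Psma1 stood at 18.4, 17.6 and 13.8 FPKM with ultrasound and at 18.1, 18.9 and 15.5 FPKM in controls, with ultrasound 3 the lowest. Psma6 was the most abundant member of the ring, with means of 48.6 ± 4.69 FPKM with ultrasound and 50.0 ± 5.297 FPKM in controls (SD, n = 3 each).

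The beta ring was more variable between libraries, with a median ratio of the highest to the lowest library of 1.75 in CPM, against 1.445 over the 45 tested genes. None of its 7 genes passed the test, and their log2 fold changes lay between -0.08 and 0.14, with 6 of 7 above zero in edgeR. For 4 of the 7 the 95% interval excluded a 1.5-fold change. The chymotrypsin-like subunit Psmb5 had 63.8, 117 and 56.5 FPKM in ultrasound libraries 1 to 3 and 71.9, 69.8 and 95.0 FPKM in controls 1 to 3. The highest and the 2 lowest values all belonged to the ultrasound group. The fold change of Psmb5 was 0.06 on the log2 scale (SE 0.32), and -0.40 without ultrasound 2, and its sign changed in 7 of the 15 alternative fits. Psmb6, the caspase-like subunit, had 31.2, 42.2 and 25.4 FPKM with ultrasound and 28.4, 35.2 and 29.5 FPKM in controls. The trypsin-like subunit Psmb7 had 27.2, 32.4 and 24.1 FPKM with ultrasound and 23.8, 31.5 and 23.2 FPKM in controls. In all 3 catalytic genes ultrasound 2 was the highest library and the groups overlapped. In the structural subunit Psmb3 ultrasound 2 was likewise the highest, with 15.1, 26.6 and 12.6 FPKM with ultrasound and 17.3, 20.7 and 21.9 FPKM in controls. Psmb2, in contrast, kept within 27.5 to 33.1 FPKM with ultrasound and within 29.9 to 32.1 FPKM in controls. Psmb1 had 16.5, 19.2 and 14.9 FPKM with ultrasound and 17.7, 17.3 and 15.2 FPKM in controls.

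The interferon-induced subunits Psmb8 and Psmb9 were low in every library, while Psmb10 was not. Psmb8 had 55, 118 and 55 counts in ultrasound libraries 1 to 3 and 45, 191 and 78 counts in controls 1 to 3. Psmb9 had 88, 93 and 26 counts with ultrasound and 50, 41 and 40 counts in controls. Both fell below the FPKM minimum and were fitted only with no such minimum, where the log2 fold change of Psmb8 was -0.16 (95% interval -1.471 to 1.146) and that of Psmb9 was 0.88 (95% interval -0.51 to 2.28), so that a 2-fold change of either was not excluded. Psmb9 overlaps Tap1 on the opposite strand, and the sources used here do not say whether counting used strand. In all, 15 of the 49 genes overlap a gene on the opposite strand by the coordinates of the deposited table. Psmb10 had 12.7, 12.04 and 11.97 FPKM with ultrasound and 11.8, 13.2 and 11.1 FPKM in controls, and its log2 fold change was 0.06 (SE 0.15, edgeR adjusted p = 0.995).

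Set against the constitutive subunit that each replaces, Psmb8 amounted to 0.495%, 0.573% and 0.587% of the FPKM of Psmb5 in ultrasound libraries 1 to 3 and to 0.283%, 1.18% and 0.560% in controls 1 to 3. Psmb9 amounted to 1.56%, 1.16% and 0.568% of Psmb6 with ultrasound and to 0.745%, 0.444% and 0.787% in controls. Psmb10 amounted to 46.6%, 37.1% and 49.6% of Psmb7 with ultrasound and to 49.7%, 41.8% and 47.7% in controls. The groups overlapped in all 3 ratios. Of the 3, Psmb10 stood nearest to its counterpart, at 37.1% to 49.7% over the 6 libraries. Microglia markers summed to 37.4 to 43.2 FPKM over 4 genes with ultrasound and to 31.5 to 38.2 FPKM in controls, and T cell markers to at most 0.0652 FPKM over 3 genes with ultrasound and at most 0.0679 FPKM in controls. The part of these cells in the immune subunits was not tested. The thymus subunit Psmb11 had 4, 0 and 0 counts with ultrasound and 24, 19 and 0 in controls, and the testis subunit Psma8 had 0, 0 and 20 counts with ultrasound and 29, 27 and 0 in controls.

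**Figure D3:**
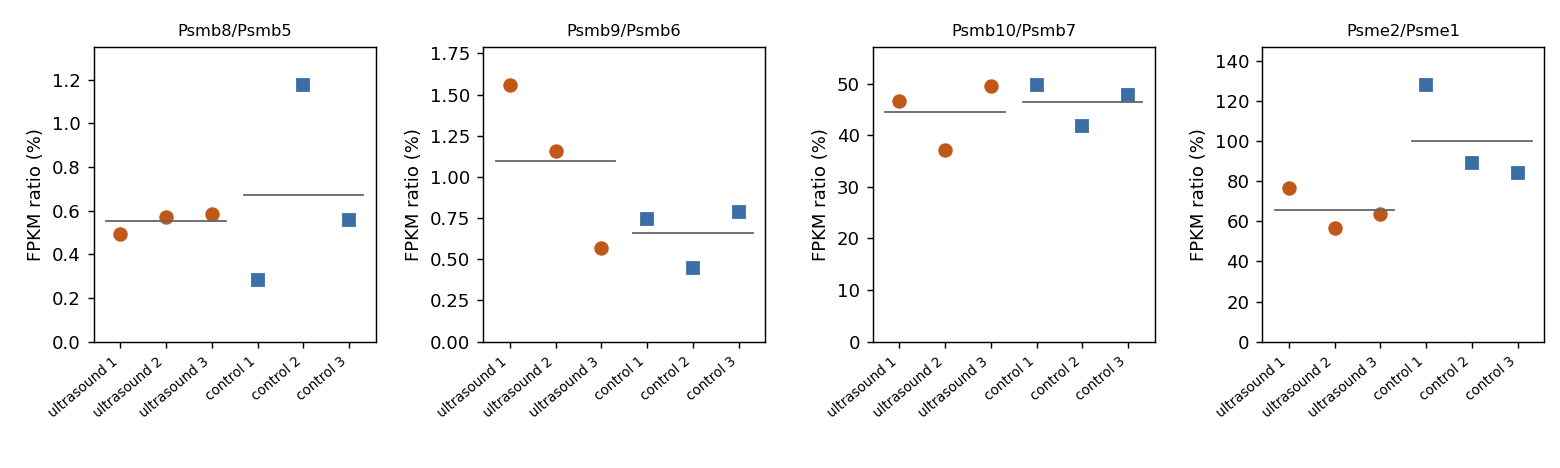
FPKM ratio in percent for Psmb8 to Psmb5, Psmb9 to Psmb6, Psmb10 to Psmb7 and Psme2 to Psme1 in each library. Circles are ultrasound and squares control libraries, and lines are group means. The groups overlap in the first 3 panels, while in the fourth all ultrasound values (56.5% to 76.4%) lie below all control values (83.9% to 128%).

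The 6 ATPases of the 19S base, which unfold the substrate, differed by less than the spread between libraries. Their log2 fold changes lay between -0.05 and 0.13, and each 95% interval excluded a 1.5-fold change. Psmc6 had 16.7, 13.5 and 17.9 FPKM with ultrasound and 15.2, 17.2 and 12.7 FPKM in controls, with a log2 fold change of 0.13 (SE 0.15, edgeR adjusted p = 0.979). Psmc2 had 16.8, 16.5 and 11.98 FPKM with ultrasound and 14.0, 15.0 and 14.1 FPKM in controls. Psmc1 had 77.4, 73.8 and 59.6 FPKM with ultrasound and 66.2, 82.8 and 75.4 FPKM in controls. Psmc5, the most abundant proteasome transcript, averaged 107 ± 12.6 FPKM with ultrasound and 110.1 ± 14.4 FPKM in controls (SD, n = 3 each).

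Among the 11 non-ATPase subunits of the cap, which include the ubiquitin receptor Psmd4 and the deubiquitinase Psmd14, 5 had a log2 fold change above zero and 6 below, with a median of -0.02. Psmd14, which removes the ubiquitin chain before the substrate enters the core, had 24.1, 22.0 and 16.8 FPKM in ultrasound libraries 1 to 3 and 19.3, 20.002 and 15.7 FPKM in controls 1 to 3. Its log2 fold change of 0.23 (SE 0.18, edgeR adjusted p = 0.976) was the highest of the class. Psmd8, a subunit of the lid, had 21.5, 25.2 and 21.0 FPKM with ultrasound and 17.9, 21.0 and 22.9 FPKM in controls. Psmd4 had 24.8, 30.1 and 23.7 FPKM with ultrasound and 28.4, 30.5 and 30.9 FPKM in controls, a log2 difference of -0.15 (SE 0.15), and the groups overlapped through ultrasound 2. The scaffold subunits Psmd1 and Psmd2 had log2 fold changes of -0.06 (SE 0.13) and 0.05 (SE 0.12).

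Assembly chaperones of both particles gave no difference past the threshold. Psmd5, Psmd9 and Psmd10, which chaperone the ATPase ring, had log2 fold changes of 0.09 (SE 0.15), -0.13 (SE 0.20) and 0.06 (SE 0.24). Psmd10, also known as gankyrin, had 8.82, 8.29 and 6.11 FPKM with ultrasound and 6.15, 9.38 and 7.36 FPKM in controls. Psmd5 had 4.42, 5.33 and 4.84 FPKM with ultrasound and 4.66, 5.02 and 4.46 FPKM in controls. Psmd9 had 2.31, 3.17 and 2.93 FPKM with ultrasound and 2.97, 2.91 and 3.65 FPKM in controls, so the groups overlapped in all 3 genes.

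The chaperones of the alpha ring, Psmg1 to Psmg4, carried less precision. Psmg1 had 5.70, 6.60 and 4.15 FPKM in ultrasound libraries 1 to 3 and 5.23, 5.76 and 8.16 FPKM in controls 1 to 3, and its partner Psmg2 had 9.04, 5.88 and 5.93 FPKM with ultrasound and 6.55, 8.33 and 8.06 FPKM in controls. Psmg3 had 2.10, 3.20 and 2.56 FPKM with ultrasound and 3.02, 3.13 and 2.46 FPKM in controls. Psmg4, its partner, had 5.84, 7.11 and 9.81 FPKM with ultrasound and 6.96, 6.07 and 6.84 FPKM in controls. For none of these 4 did the 95% interval exclude a 1.5-fold change, and no pattern across the group was shared by all 4 genes. Pomp, the maturation factor that completes the core and lies outside the naming rule, had 13.002, 11.8 and 11.7 FPKM with ultrasound and 12.2, 14.3 and 11.99 FPKM in controls, with a log2 fold change of -0.04 (SE 0.12).

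The PA28 subunit Psme2 gave the largest difference among the 45 tested proteasome genes. Psme2 had 5.21, 5.86 and 5.22 FPKM in ultrasound libraries 1 to 3 and 8.81, 7.20 and 8.67 FPKM in controls 1 to 3, with means of 5.43 ± 0.372 and 8.22 ± 0.893 FPKM (SD, n = 3 each). Every ultrasound library lay below every control, which was so for 1 of the 45 genes in this direction and for 5.66% of all tested genes. The log2 fold change was -0.55 (SE 0.19, 95% interval -0.996 to -0.107), with an unadjusted p of 0.0212 and an adjusted p of 0.973 in edgeR, and an adjusted p of 0.649 in DESeq2, so the difference did not pass. Over the 15 alternative fits the log2 fold change ranged from -0.66 to -0.49 and the adjusted p did not fall below 0.649. In the table Psme2 (ENSMUSG00000079197) lies on chromosome 14, minus strand, from 55824898 to 55828570, in coordinates that did not equal those of GENCODE M21 on GRCm38 for any of the 49 genes, although the submitters' processing notes name mm10.

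A near-identical copy bears on this value. The retrogene Psme2b on chromosome 11 shares 99.4% of 794 aligned bases with the Psme2 transcript in GENCODE M21, and the sources used here do not say how reads that match both were counted. Psme2b had 6.97, 9.13 and 6.11 FPKM with ultrasound and 6.67, 7.76 and 8.50 FPKM in controls, with a log2 fold change of 0.00 (SE 0.27). When the counts of both genes were added, they came to 16.7, 21.9 and 16.2 CPM in ultrasound libraries 1 to 3 and to 23.8, 21.1 and 25.4 CPM in controls 1 to 3, and the groups then overlapped through ultrasound 2 and control 2. RefSeq gave Psme2 a window at chr14:55590972-55591271 and another that overlaps it further upstream. Neither window held either response element. The upstream window is shown 5′ to 3′ on the strand of the gene, without capitals because no match was found.
Psme2, chr14:55591052-55591351, minus strand, GRCm38.p6: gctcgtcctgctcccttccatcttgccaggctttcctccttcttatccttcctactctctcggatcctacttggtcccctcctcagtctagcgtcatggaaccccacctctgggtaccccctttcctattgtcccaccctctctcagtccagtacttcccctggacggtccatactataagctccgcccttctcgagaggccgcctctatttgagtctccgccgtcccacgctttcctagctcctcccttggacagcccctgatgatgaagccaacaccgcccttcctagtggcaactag

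The partner subunit Psme1, which forms a ring with Psme2, had 6.82, 10.4 and 8.18 FPKM in ultrasound libraries 1 to 3 and 6.89, 8.07 and 10.3 FPKM in controls 1 to 3, with a log2 fold change of 0.05 (SE 0.25). Psme2 therefore amounted to 76.4%, 56.5% and 63.8% of Psme1 with ultrasound and to 128%, 89.1% and 83.9% in controls, a description of genes chosen after their values were seen. Psme3, the nuclear activator PA28 gamma, had 34.4, 34.1 and 37.4 FPKM with ultrasound and 33.9, 35.8 and 33.4 FPKM in controls. Psme4, the activator PA200, had 6.36, 4.96 and 6.42 FPKM with ultrasound and 7.85, 7.25 and 6.32 FPKM in controls, and its log2 fold change was -0.24 (SE 0.14, edgeR adjusted p = 0.973). Psmf1, the regulator PI31, had 5.50, 2.77 and 4.31 FPKM with ultrasound and 4.63, 5.56 and 5.05 FPKM in controls, with ultrasound 2 the lowest.

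Single libraries ranked alike across many of the genes. Ultrasound 2 was the highest of the 6 libraries in 25 of the 45 tested genes (55.6%), as it was in 17.0% of all tested genes. Ultrasound 3 was the lowest in 24 of the 45 (53.3%), as it was in 16.2% of all tested genes. Both held at once in 16 of the 45 genes (35.6%) and in 4.29% of all genes. The order was clearest in the beta ring, whose median of log2 CPM relative to each gene's mean was -0.05, 0.45 and -0.32 in ultrasound libraries 1 to 3 and -0.10, 0.09 and 0.05 in controls 1 to 3. Over all 45 genes these medians were -0.02, 0.19 and -0.19 with ultrasound and -0.04, 0.08 and -0.03 in controls. The genes of one library share its depth and scaling, so these counts are a description.

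**Figure D4:**
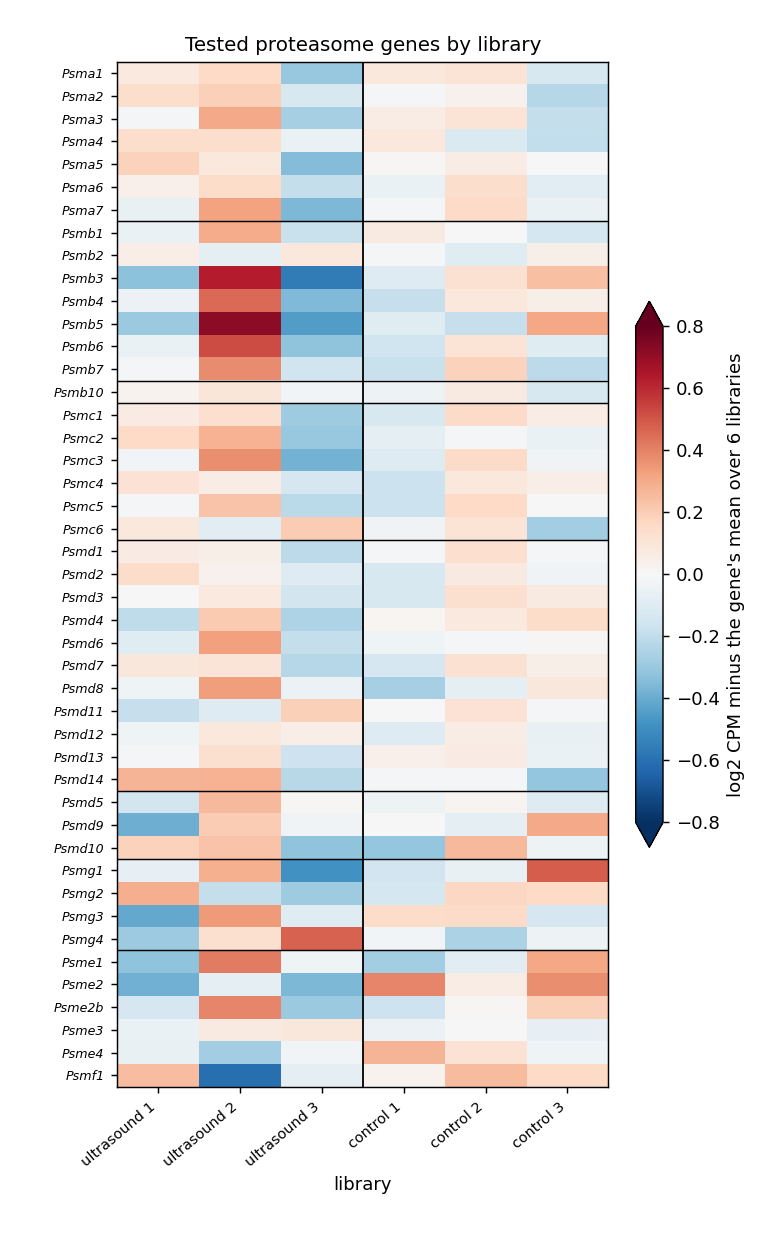
Heat map of log2 CPM minus the gene's mean over the 6 libraries for the 45 tested proteasome genes, with genes down the page by class and libraries across, ultrasound on the left. Red is above and blue below the mean. Ultrasound 2 is red for most genes, most of all in the beta ring, and ultrasound 3 is blue for most genes.

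The number of genes above zero depended on these libraries. With all libraries 27 of the 45 were above zero, without ultrasound 2 it was 12, the median being -0.09 on the log2 scale, and without ultrasound 3 it was 38, the median being 0.09. The median of all tested genes stayed at -0.01 in both fits. Without ultrasound 2, 3 genes had an unadjusted p under 0.05, Psmb3, Psmd4 and Psme2, and without ultrasound 3 it was Psmd14 alone, and none passed after adjustment in edgeR. Ultrasound 2 held the highest share of 18S ribosomal RNA counts, 9.18%. Control 3 held the next highest, 4.68%, and had a median of -0.03 over the 45 genes. Ultrasound 3 held the choroid plexus transcript noted above and the highest sum of 3 striatal genes, 65.2 FPKM against 28.4 and 32.8 FPKM in the other ultrasound libraries and 12.5 to 47.1 FPKM in controls. The part of these in the order of the libraries was not tested.

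Nfe2l1, also called NRF1, the transcription factor that raises proteasome subunit genes when the proteasome is inhibited, differed most within the control group. Nfe2l1 had 72.6, 62.9 and 68.4 FPKM in ultrasound libraries 1 to 3 and 13.006, 13.6 and 61.9 FPKM in controls 1 to 3. Controls 1 and 2 were low and control 3 lay just below the ultrasound libraries, so the groups did not overlap. With all libraries the log2 fold change was 1.23 (SE 0.65, edgeR adjusted p = 0.973). Without control 3 it was 2.40 and Nfe2l1 passed in edgeR (adjusted p = 0.00300), where 0.0254% of all tested genes passed, and over the alternatives its adjusted p ranged from 0.00300 to 0.9997. In the same fit without control 3, none of the 45 proteasome genes passed or had an unadjusted p under 0.05, 25 were above zero and their median was 0.02. The summed proteasome transcripts, 999 and 1142 FPKM in controls 1 and 2, spanned most of the range of the other 4 libraries, 924 to 1165 FPKM. These are transcript levels, and the part of Nfe2l1 in the level of the proteasome genes was not tested. Controls 1 and 2 also held the highest sums of 4 neutrophil markers, 16.4 and 28.3 FPKM, against 1.27 to 5.95 FPKM with ultrasound and 1.51 FPKM in control 3, and the part of this in the values of Nfe2l1 was not tested.

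**Figure D5:**
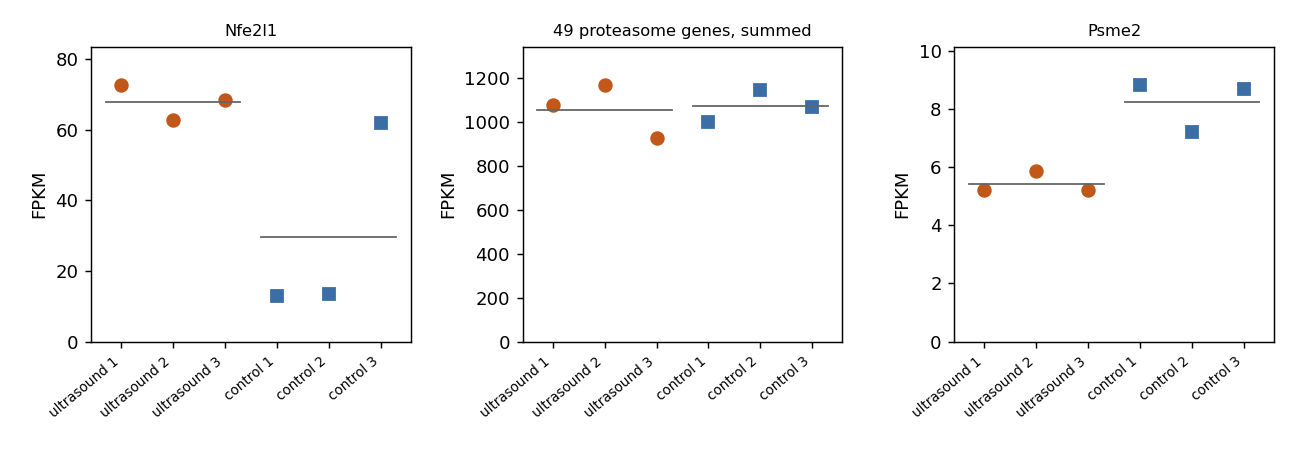
FPKM in each library for Nfe2l1, for the sum of the 49 proteasome genes and for Psme2. Circles are ultrasound and squares control libraries, lines are group means, and the axes start at 0. Nfe2l1 is near 13 FPKM in controls 1 and 2 and above 60 FPKM in the other 4 libraries, a split that the summed proteasome genes do not show.

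The other proteins that work with the proteasome were described with a list of 28 genes, of which 27 were found and all 27 tested. None passed in edgeR or in DESeq2 with all libraries, and 1 had an unadjusted p under 0.05 in edgeR, where 4.77% of all tested genes did. That gene was Akirin2, an adaptor for the import of proteasomes into the nucleus, with 26.1, 25.6 and 27.4 FPKM in ultrasound libraries 1 to 3 and 21.9, 23.5 and 19.9999 FPKM in controls 1 to 3. Every ultrasound library lay above every control, and the log2 fold change was 0.31 (SE 0.13, edgeR adjusted p = 0.973). Usp14, the deubiquitinase bound to the 19S cap, had 17.0, 14.8 and 14.3 FPKM with ultrasound and 13.8, 14.1 and 12.02 FPKM in controls, also without overlap, and differed by 0.25 on the log2 scale (SE 0.12). Together with Nfe2l1 and the proteasome-bound thioredoxin Txnl1, the groups did not overlap in 4 of the 27 genes, all higher with ultrasound, as was so for 5.69% of all tested genes. The median log2 fold change of the list was 0.08, with 17 of 27 above zero.

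Among the same partners, the cap subunit Sem1 had 6.71, 7.19 and 5.43 FPKM with ultrasound and 4.80, 5.67 and 6.07 FPKM in controls, with a log2 fold change of 0.27 (SE 0.19). Ddi2, the protease that activates Nfe2l1 by cutting it, had 5.60, 4.80 and 7.14 FPKM with ultrasound and 5.06, 6.79 and 5.12 FPKM in controls. Ngly1, the glycanase that also processes Nfe2l1, differed by -0.03 on the log2 scale (SE 0.17), and the related factor Nfe2l2 by -0.06 (SE 0.18). The ubiquitin gene Ubb was the most abundant of the list, with 514, 547 and 465 FPKM with ultrasound and 533, 539 and 544 FPKM in controls. None of these separated the groups.

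Antigen-processing genes, which act downstream of the immunoproteasome, gave no call between the groups. Of 10 listed genes 8 were tested, and 7 of these had a log2 fold change below zero, as did 8060 of all 15740 tested genes. The median was -0.20 over the 8 genes and -0.01 over all tested genes. None passed in edgeR or DESeq2, and none had an unadjusted p under 0.05 in edgeR. B2m, the light chain of MHC class I, had 37.5, 47.8 and 53.7 FPKM in ultrasound libraries 1 to 3 and 56.4, 58.1 and 61.6 FPKM in controls 1 to 3. Its log2 fold change was -0.30 (SE 0.17, edgeR adjusted p = 0.973). B2m was the 1 gene of the 8 in which the groups did not overlap. In 5.66% of all tested genes every ultrasound library likewise lay below every control. Irf1, a transcription factor that induces Psmb8 and Psmb9, had 1.08, 1.02 and 1.11 FPKM with ultrasound and 1.82, 1.73 and 1.06 FPKM in controls, so that control 3 again lay with the ultrasound libraries. Tapbp, a chaperone of peptide loading, had 2.95, 4.15 and 3.22 FPKM with ultrasound and 3.54, 4.24 and 7.08 FPKM in controls. The peptide transporter Tap1 and the MHC activator Nlrc5 fell below the FPKM minimum.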

How the data were processed

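RNA of the motor cortex was measured by paired-end sequencing of libraries made from oligo(dT)-selected RNA, per the labels' protocols. For each gene and library the deposited table holds a raw read count and an FPKM value, both made by the authors, per the file headers. Per the submitters' processing notes, the tools were DESeq2, edgeR, StringTie 1.3.4d, HISAT2 2.0.4 and cutadapt 1.9, and the build was mm10, with no role or order given. The table's 12 further library columns were left out.

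Genes with a mean of at least 0.5 FPKM went into one quasi-likelihood fit over the 6 libraries, with robust dispersion, TMM scaling and no covariate (edgeR 4.0.16, R 4.3.3). CPM values use the TMM-scaled library sizes. The SE is the size of the log2 fold change divided by the square root of the F statistic. Alternatives used DESeq2 1.42.0 and limma 3.58.1. The code was tested on simulated counts. The members, classes and partner lists were chosen with earlier results of these data known. All members are accounted for by class, and values by library follow the smallest p-values of each class and a fixed set of catalytic, activator and regulator genes. Psma6, Psmb2, Psmb3, Psmc5, Psmd1, Psmd2, Psme2b, Txnl1, Ubb, Ngly1 and Nfe2l2 fall outside that rule and were picked with their values in view. Of the partner list, Paaf1 was not analysed here. Coordinates of the table equalled GENCODE M21 on GRCm38 for 0 of the 49 members. No molecular identifiers are recorded, so reads may repeat a molecule and depth sets the precision only in part.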

Additional observations from a re-analysis of the deposited data

How the results depend on the processing

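No proteasome gene passed in any of the 15 alternative fits, which were DESeq2, 3 limma fits of log2 FPKM, another scaling, 2 other filters, the replicate number as a block, 6 fits with 1 library left out, and a fit without control 3 and ultrasound 2. The number of genes past the threshold among all tested genes was 1 with edgeR, 29 with DESeq2, 0 in the limma fits with pseudocounts of 0.5, 0.1 and 1, 8 without control 3 and ultrasound 2, and 1 to 4 with single libraries left out. Proteasome genes with an unadjusted p under 0.05 numbered 1 in the edgeR fit, 2 without control 3 and ultrasound 2, and 0 to 3 with single libraries left out. With the replicate block the number was 0, and same-numbered libraries did not deviate together (correlations of -0.038, 0.00211 and 0.0682), so the numbers were not taken as pairs. The unadjusted p of Psme2 stayed under 0.05 without control 2 and without ultrasound 2, but not without control 1, control 3, ultrasound 1 or ultrasound 3. Partner genes past the threshold numbered 1 without control 3 and ultrasound 2 and 0 to 1 with single libraries left out, in both cases Nfe2l1, and these fits of the partners were added after the data were seen. The log2 fold change of Psmb10, the one tested immunoproteasome gene, was -0.0194 without control 3 and ultrasound 2 and 0.06 with all libraries. The 3 limma fits, which carry no TMM scaling, left 18 of the 45 genes above zero, against 27 in edgeR. The causes of these changes were not tested. Psmb8, Psmb9, Psmb11 and Psma8 lay under the FPKM minimum, and for Psmb8 and Psmb9 the intervals without that minimum did not exclude a 2-fold change. The share of depth and of spread between libraries in those intervals was not tested.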
